A study of Mus musculus with 8 samples.

Results

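The genes described here are the 3 Nr4a nuclear receptors, Nr4a1, Nr4a2 and Nr4a3, and 7 genes of the immediate early response, Fos, Fosb, Junb, Atf3, Egr1, Klf4 and Ier2. They are 10 of the 41079 genes in the count tables, and all 10 were among the 20581 that passed the low-count filter. They were chosen by name, to see whether Nr4a3, which had stood out between the genotypes in these libraries, moves with the genes that are usually induced beside it. The comparison between genotypes chose Nr4a3, so its values are given for these genes as a description, without a test.

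RNA came from micro-dissected organ of Corti, the strip of hair cells and supporting cells that detects sound, of newborn (P0) mice. There were 4 wildtype libraries and 4 libraries labelled as Prox1 knockout, from mice with Emx2-cre and floxed Prox1, in which Cre recombinase made under Emx2 is to delete the homeobox gene Prox1. The labels give no allele for the wildtype mice and do not say whether libraries came from separate animals, so errors and p-values describe the spread between these libraries, which could be technical alone. Libraries held 29908965 to 42318233 counts. Prox1 itself had 106 to 115 CPM (counts scaled to library size) in wildtype, against 134 to 147 CPM in the knockout-labelled libraries, so its total was not lower there. Counts summed over a whole gene cannot reveal a loss of the floxed sequence, so these totals do not settle the genotype, and directions below follow the labels. Summed markers of hair cells, supporting cells, endothelium, macrophages, spiral ganglion neurons, glia, mesenchyme and red cells overlapped between the groups, and none of these markers was at 0. Of all markers, Prox1, a supporting cell marker, was the single one called by edgeR. Groups did not overlap for 2 of the 7 supporting cell markers, Prox1 and Fgfr3. Fgfr3 had 96.9 to 101 CPM in wildtype, against 84.4 to 95.8 CPM in the knockout-labelled libraries. The sum of the 8 stria vascularis and melanocyte markers, of which 0 were called by edgeR and 2 had groups apart, did not overlap, with 84.6 to 147 CPM in wildtype, against 69.0 to 82.2 CPM in the knockout-labelled libraries.

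Immediate early genes are transcribed within minutes of a stimulus such as calcium entry, growth factor signalling or tissue handling, by transcription factors that are already in the nucleus, among them CREB and the serum response factor, and their transcripts decay quickly. The Nr4a proteins are orphan nuclear receptors of this class: they act without a known classical ligand, bind DNA as monomers or dimers, and Nr4a1 and Nr4a2, unlike Nr4a3, also pair with retinoid X receptors. Fos and Fosb pair with Jun proteins such as Junb to form the AP-1 factor, Egr1 and Klf4 are zinc finger factors, Atf3 is a stress-induced leucine zipper factor and Ier2 is a small nuclear protein. In the inner ear, Nr4a3 is known for its role in the growth of the semicircular canals.

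The promoter sequences show what these genes share before any expression value is considered. RefSeq windows on GRCm38.p6, an older assembly than the GRCm39 of the count tables, were matched by symbol for 8 of the 10 genes, all but Egr1 and Ier2. The 250 bases before the annotated start of each window were searched on both strands. For Nr4a1, Nr4a3 and Fosb this start lies inside the RefSeq span of the gene. The letters searched were TGACG, the core of the cyclic AMP response element to which CREB binds. Each of the 8 windows held this core at least once, against 17.8% of 32851 windows. Nr4a1, Nr4a2 and Nr4a3 held 4 cores each, a number reached by 0.137% of windows (45 of them). Fos held 2 and the other 4 genes held 1 each. The sites of the Nr4a genes and Fos are printed 5′ to 3′ on the strand that reads TGACG, with the core in capitals and 5 bases on each side, because the letters after the core set the 3 receptors apart. The first number gives the distance in bases from the start to the first base of the core on the strand of the gene.
Nr4a1 at -233, chr15:101266608-101266622, minus strand: tccatTGACGcaggg
Nr4a1 at -213, chr15:101266628-101266642, minus strand: gcgcgTGACGcacgc
Nr4a1 at -69, chr15:101266772-101266786, minus strand: gccacTGACGcacac
Nr4a1 at -40, chr15:101266801-101266815, minus strand: ctccgTGACGcatgg
Nr4a2 at -200, chr2:57124194-57124208, plus strand: gccagTGACGccggc
Nr4a2 at -144, chr2:57124138-57124152, plus strand: ctccgTGACGcgtgc
Nr4a2 at -123, chr2:57124117-57124131, minus strand: cgggcTGACGgggcc
Nr4a2 at -111, chr2:57124105-57124119, minus strand: gccgcTGACGcgctt
Nr4a3 at -231, chr4:48045069-48045083, plus strand: gagggTGACGtagcg
Nr4a3 at -213, chr4:48045087-48045101, minus strand: caatgTGACGacatg
Nr4a3 at -205, chr4:48045095-48045109, plus strand: cacatTGACGtctcg
Nr4a3 at -147, chr4:48045153-48045167, plus strand: ataaaTGACGtgccg
Fos at -129, chr12:85473756-85473770, plus strand: agagtTGACGacaga
Fos at -66, chr12:85473819-85473833, plus strand: cccagTGACGtagga

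After the core, all 4 sites of Nr4a1 went on with CA. The longer word TGACGCA occurred 3 or more times in 1 of the 32851 windows, that of Nr4a1. Of the 4 sites of Nr4a3, 3 went on with T, as in the full cyclic AMP response element TGACGTCA, and TGACGT occurred 3 or more times in 0.152% of windows. Nr4a2 held neither longer word, and Fos held TGACGT 1 time. Both longer words were picked with the printed sites in view, so their rarity describes these sites and tests nothing. The full TGACGTCA occurred in none of the 8 windows and in 1.55% of all windows. In the GENCODE M21 annotation, the printed stretch of 1 Nr4a3 site, at -147, overlapped a noncoding exon of the gene, and the other 3 lay in no exon of it. The sites of Nr4a1, Nr4a2 and Fos lay in no exon of these genes, those of Nr4a1 within its RefSeq span of chr15:101253902-101274795. The first Nr4a3 site crosses the left end of the Nr4a3 span, chr4:48045078-48086447, and the other 3 lie within it.

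In the remaining 4 genes the single cores read as follows, printed in the same way to set beside the receptors. The printed stretch of Atf3, taken with its flanks, overlaps a noncoding exon of that gene, and the other stretches lie in no exon of their gene. That of Fosb lies within the RefSeq span of Fosb, chr7:19302696-19310118.
Fosb at -60, chr7:19310096-19310110, minus strand: gcgggTGACGcaagc
Junb at -106, chr8:84978845-84978859, minus strand: gacagTGACGcgagc
Klf4 at -232, chr4:55532698-55532712, plus strand: ggccgTGACGccagc
Atf3 at -7, chr1:191183331-191183345, plus strand: caggcTGACGtaatg

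Other motifs were less common in the 8 windows. An Egr site, GCGNGGGCG on either strand, was found in Nr4a1, Nr4a2, Fosb and Klf4, against 4.70% of all windows. The AP-1 site TGANTCA (6.75% of windows), the Nr4a monomer site AAAGGTCA (1.34%) and the CArG box of serum response factor (1.47%) were not found in these windows. Sequence farther from the start, and that of Egr1 and Ier2, was not searched, so sites there would be missed. Such matches describe the letters and do not show binding.

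**Figure D1:**
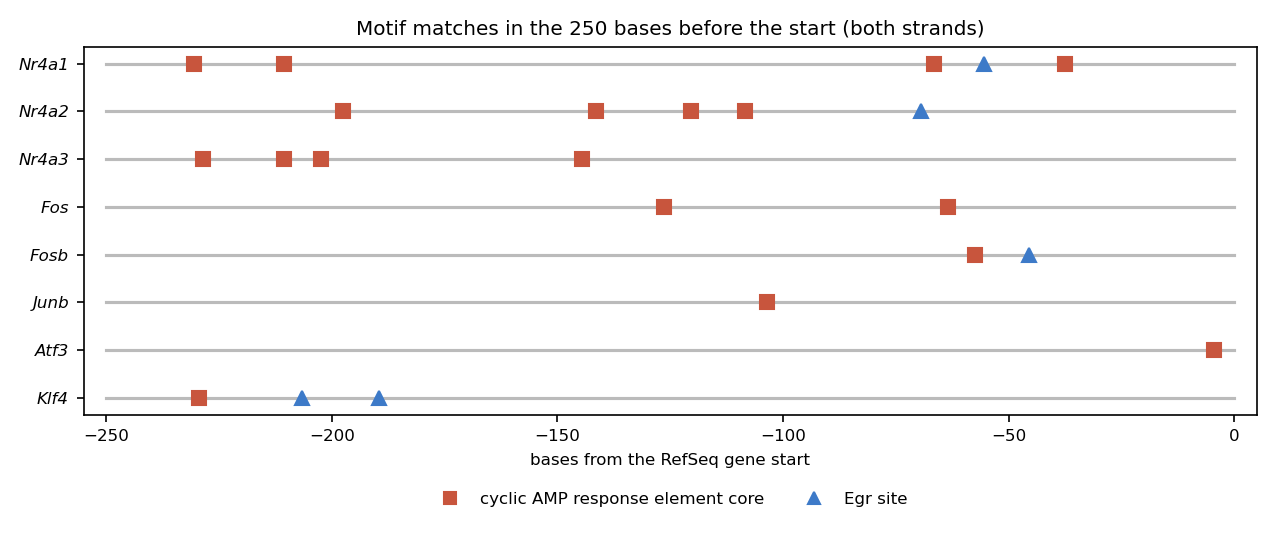
Positions of the cyclic AMP response element core (squares) and the Egr site (triangles) in the 250 bases before the start of each window. There is 1 row per gene for 8 genes, with the distance from that start in bases on the horizontal axis. The 3 Nr4a rows hold 4 squares each, spread from -233 to -40 in Nr4a1 and from -231 to -147 in Nr4a3.

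Among the Nr4a receptors, Nr4a3 alone had groups that did not overlap. Nr4a3 had 7.27, 7.11, 7.46 and 8.63 CPM in the wildtype libraries 1 to 4, against 2.205, 2.50, 2.09 and 2.93 CPM in the knockout-labelled libraries 1 to 4. Each knockout-labelled library lay below each wildtype library, with means of 2.43 ± 0.37 and 7.62 ± 0.69 CPM (SD, n = 4 per group). The wildtype mean was 3.13-fold that of the knockout-labelled libraries. The log2 fold change was -1.64 ± 0.14 (SE of edgeR's fit). In bulk tissue, fewer cells that make Nr4a3 and less Nr4a3 RNA per cell cannot be told apart.

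Nr4a1, also called Nur77, had 27.6, 37.2, 25.4 and 31.8 CPM in wildtype, against 25.6, 32.0, 28.0 and 28.9 CPM in the knockout-labelled libraries. The groups overlapped throughout, and the log2 fold change was -0.09 ± 0.11 (SE). Nr4a2, or Nurr1, known for its role in dopamine neurons, had 10.5, 16.1, 13.8 and 12.4 CPM in wildtype, against 11.7, 17.2, 16.0 and 13.3 CPM in the knockout-labelled libraries. Its groups overlapped as well, with a log2 fold change of 0.14 ± 0.14 (SE), which ran from 0.045 without wildtype library 1 to 0.25 without wildtype library 2. In both genes library 2 of a group was the highest of that group.

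Levels of different genes were compared as CPM per kilobase of exon. On this scale, Nr4a1 made up 60.9 to 67.4% of the summed Nr4a level in wildtype, against 65.0 to 69.2% in the knockout-labelled libraries. The share of Nr4a3 was 10.4, 7.54, 10.5 and 10.6% in wildtype, against 3.49, 3.03, 2.85 and 4.08% in the knockout-labelled libraries. The summed level of the 3 receptors was 13.2 ± 1.89 and 12.1 ± 1.33 CPM per kilobase (SD, n = 4 per group), so Nr4a3 was a minor part of the family in both groups. The ratio of Nr4a3 to Nr4a1 CPM within a library lay between 0.191 and 0.294 in wildtype and between 0.0748 and 0.102 in the knockout-labelled libraries.

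**Figure D2:**
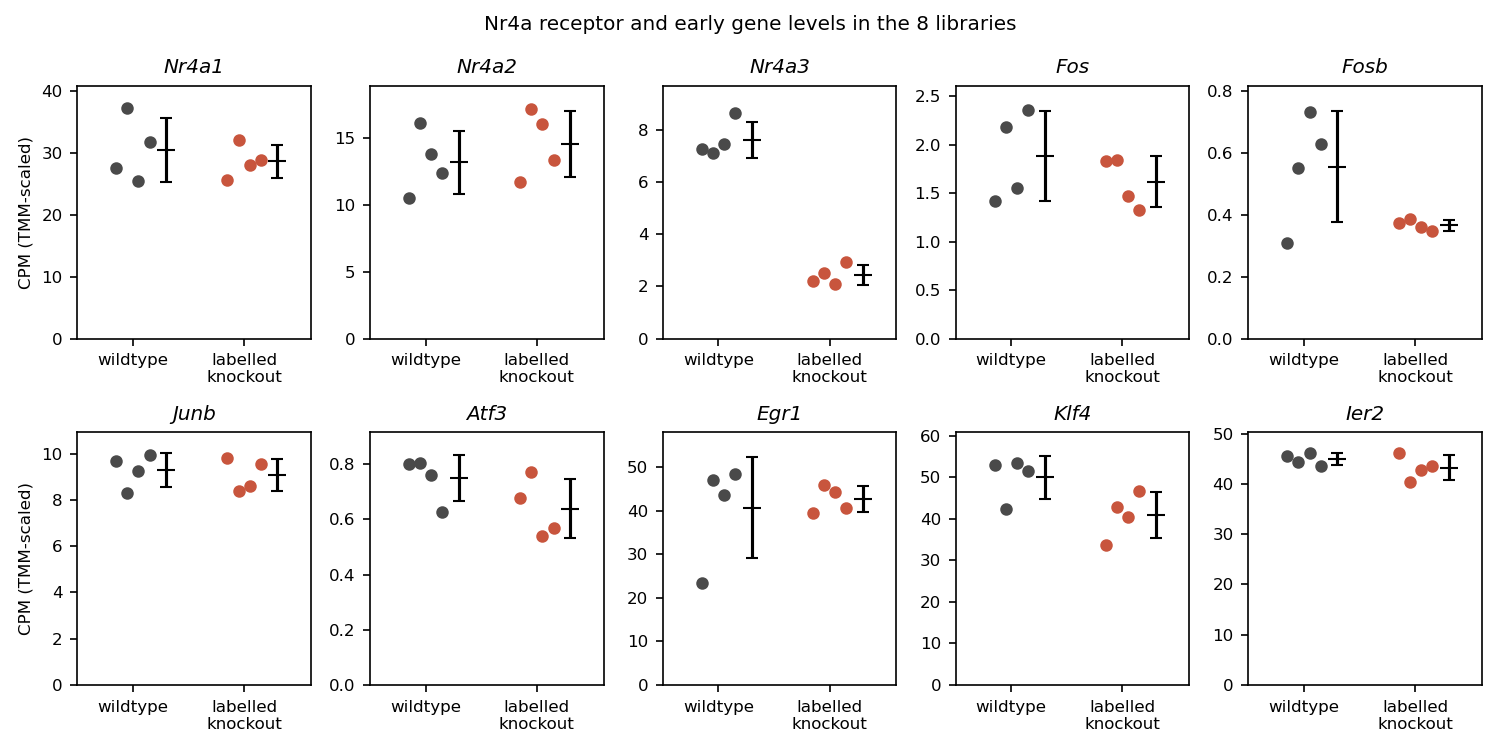
CPM of the 10 genes in each library (points), wildtype and labelled knockout, with the mean and SD of each group (bars). Nr4a3 is the single panel in which the groups do not overlap, with 7.11 to 8.63 against 2.09 to 2.93 CPM.

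Fos and Fosb, which encode AP-1 subunits, were among the lowest of the 10. Fos had 1.42, 2.19, 1.55 and 2.36 CPM in wildtype, against 1.83, 1.84, 1.47 and 1.32 CPM in the knockout-labelled libraries, with a log2 fold change of -0.22 ± 0.21 (SE). That of Fos ran from -0.33 without wildtype library 1 to -0.097 without wildtype library 4, and was -0.58 with a score of stria markers, described below, as a covariate. Fosb had 0.310, 0.552, 0.732 and 0.627 CPM in wildtype, against 0.347 to 0.386 CPM in the knockout-labelled libraries, with a log2 fold change of -0.59 ± 0.31 (SE). Wildtype library 1 lay below all 4 knockout-labelled libraries for Fosb, and the other wildtype libraries above them. These levels rest on 42 to 95 counts per library for Fos and 11 to 25 for Fosb. Junb, the Jun partner, had 8.29 to 9.95 CPM in wildtype, against 8.38 to 9.80 CPM in the knockout-labelled libraries (log2 fold change -0.03 ± 0.10, SE). Atf3, the stress-induced factor, had 0.627 to 0.806 and 0.538 to 0.773 CPM (log2 fold change -0.23 ± 0.23, SE), from 18 to 35 counts.

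Egr1 and Klf4, which encode zinc finger factors, were among the higher of the 10 in level. Egr1 had 23.5, 47.0, 43.6 and 48.3 CPM in wildtype, against 39.5, 46.0, 44.4 and 40.7 CPM in the knockout-labelled libraries. Wildtype library 1 stood below the other 7, and the log2 fold change was 0.07 ± 0.17 (SE), or -0.12 without that library. Klf4 had 52.9, 42.2, 53.3 and 51.4 CPM in wildtype, against 33.7, 42.9, 40.4 and 46.6 CPM in the knockout-labelled libraries, with a log2 fold change of -0.29 ± 0.10 (SE). Wildtype library 2 lay among the knockout-labelled libraries, so the groups of Klf4 overlapped. Ier2 had 43.5 to 46.1 and 40.4 to 46.2 CPM, a log2 fold change of -0.05 ± 0.06 (SE).

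Of the 10 genes, edgeR at an adjusted p of 0.05 called 1 lower, Nr4a3, and 0 higher, while of all tested genes 0.0923% were called, 0.0583% as lower and 0.0340% as higher. Since Nr4a3 was chosen from this comparison, nothing is read from that count. The other 9 had a median log2 fold change of -0.09, with 7 below 0 and 2 above, against 0.00 over all tested genes. Groups did not overlap for 1 of the 10 genes, Nr4a3, and for 3.69% of all tested genes (1.62% lower and 2.07% higher). In the authors' deposited table, which comes from DESeq2 and has 0.450% of its genes past an adjusted p of 0.05, Nr4a3 is the 1 member past it. There Nr4a3 has a log2 fold change of -1.65 and Klf4, the next of the 10 by p-value, -0.29, with an adjusted p of 0.358 for Klf4.

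Ordered by CPM per kilobase in wildtype, the genes ran Ier2 (29.5), Klf4 (16.4), Egr1 (9.06), Nr4a1 (8.69), Junb (4.04), Nr4a2 (3.25), Nr4a3 (1.27), Fos (0.799), Atf3 (0.348) and Fosb (0.0890). Egr1 and Nr4a1 overlapped between libraries, as did Junb and Nr4a2, and the other neighbours did not. In the knockout-labelled libraries a single change of place was seen. Fos, at 0.687 ± 0.11, stood above Nr4a3, at 0.406 ± 0.06 CPM per kilobase (SD, n = 4 per group), and Nr4a3 then overlapped Atf3.

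Markers that differed between the groups were set beside Nr4a3. A stria score, averaged from the log2 CPM of the 8 stria and melanocyte markers, was 3.90, 3.05, 3.45 and 2.11 in the wildtype libraries 1 to 4 and 1.95 to 2.40 in the knockout-labelled libraries. Wildtype library 4 had a score within the range of the knockout-labelled libraries, and its Nr4a3 level, 8.63 CPM, was the highest of all 8. The other wildtype libraries lay above that range, so the score largely follows the group. Whether stria content bears on the Nr4a3 difference was not tested. The log2 fold change of Nr4a3 was -1.69 without the wildtype libraries 1 and 3, which had the highest scores, and -1.78 ± 0.18 (SE) with the score as a covariate. With the mean log2 CPM of Fos, Fosb, Junb, Egr1 and Ier2 as a covariate it was -1.62 ± 0.15 (SE).

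**Figure D3:**
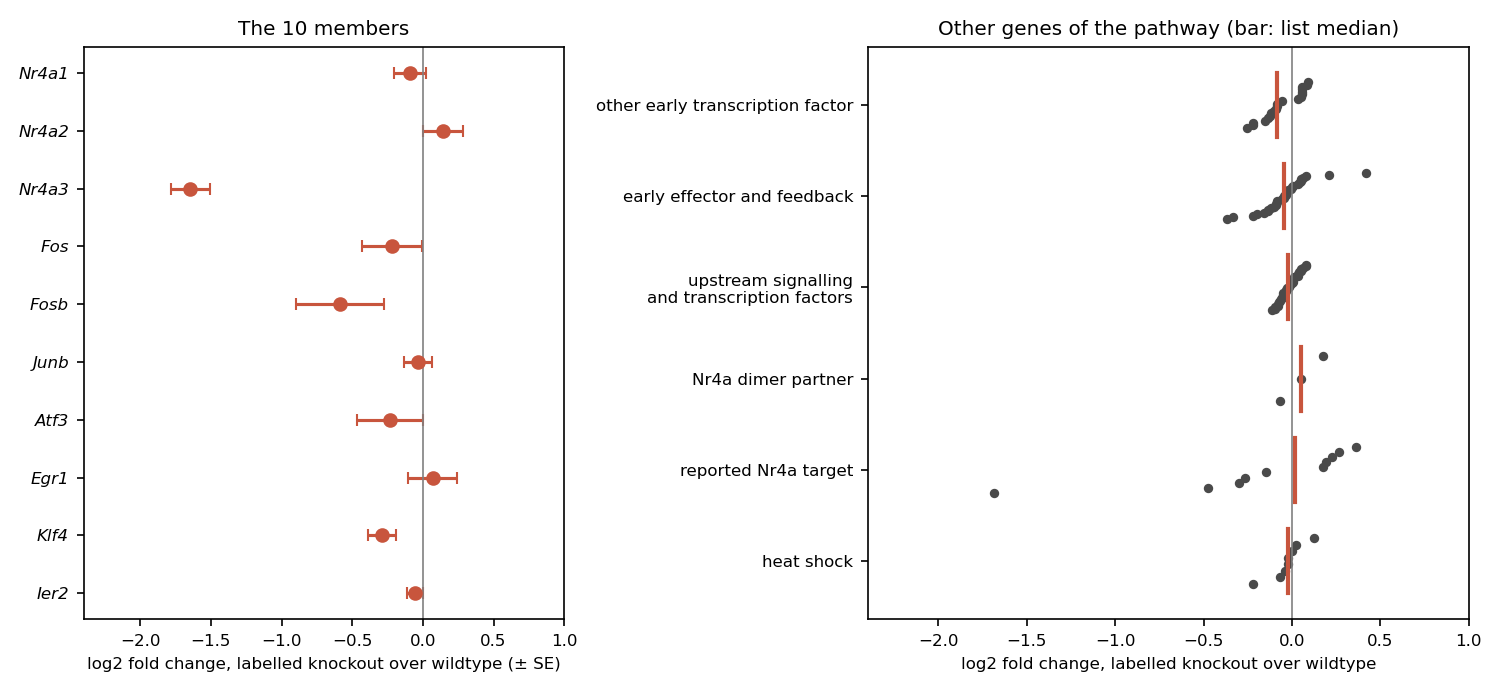
Log2 fold changes, knockout-labelled libraries over wildtype: left, the 10 genes with SE; right, each tested gene of the 6 pathway lists (points) with the list median (bar). Nr4a3 lies at -1.64 and the other 9 genes between -0.59 and 0.14.

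Whether Nr4a3 follows the early genes from library to library was asked apart from genotype, in the deviations of log2 CPM from the group means over the 8 libraries. The 9 correlations of Nr4a3 and the 8 further ones of Fos formed a family of 17, tested by exact permutation within groups (two-sided). None passed after Benjamini-Hochberg adjustment, and at an unadjusted exact p under 0.05 there were 0 by Pearson's r and 1 by Spearman's rho. Nr4a3 and Fos had r = 0.02 and rho = 0.00 (exact permutation p = 0.944 and 1, adjusted p = 0.944 and 1). Within groups, r of Nr4a3 and Fos was 0.53 in wildtype and -0.43 in the knockout-labelled libraries, so the pooled r joins opposite signs. Nr4a3 and Nr4a1 had r = 0.19 and rho = 0.26 (exact permutation p = 0.601 and 0.514, adjusted p = 0.838 and 0.848).

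The closest of the 9 to Nr4a3 was Klf4, with r = 0.62 and rho = 0.71 (exact permutation p = 0.142 and 0.113, adjusted p = 0.838 and 0.523), and r = 0.47 without wildtype library 4 and library 4 labelled knockout, the libraries farthest from the median of Nr4a3. Within groups, r was 0.38 in wildtype, against 0.75 in the knockout-labelled libraries, 4 libraries each. Fos and Egr1 had r = 0.65 and rho = 0.76 (exact permutation p = 0.0556 and 0.0295, adjusted p = 0.838 and 0.502). Without the wildtype libraries 1 and 4, the farthest from the median of Fos, r was 0.37 (exact permutation p = 0.438). Leaving out such extreme values also narrows the range of Fos. With 1 library left out, r of Fos and Egr1 ran from 0.48 to 0.80. With 8 libraries only strong correlations could be detected. Low counts limit them further, as the lowest count was 65 for Nr4a3 and 42 for Fos. Counting noise alone is 12.4% and 15.4% at these counts, so a small r does not show that Nr4a3 and Fos are unrelated.

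**Figure D4:**
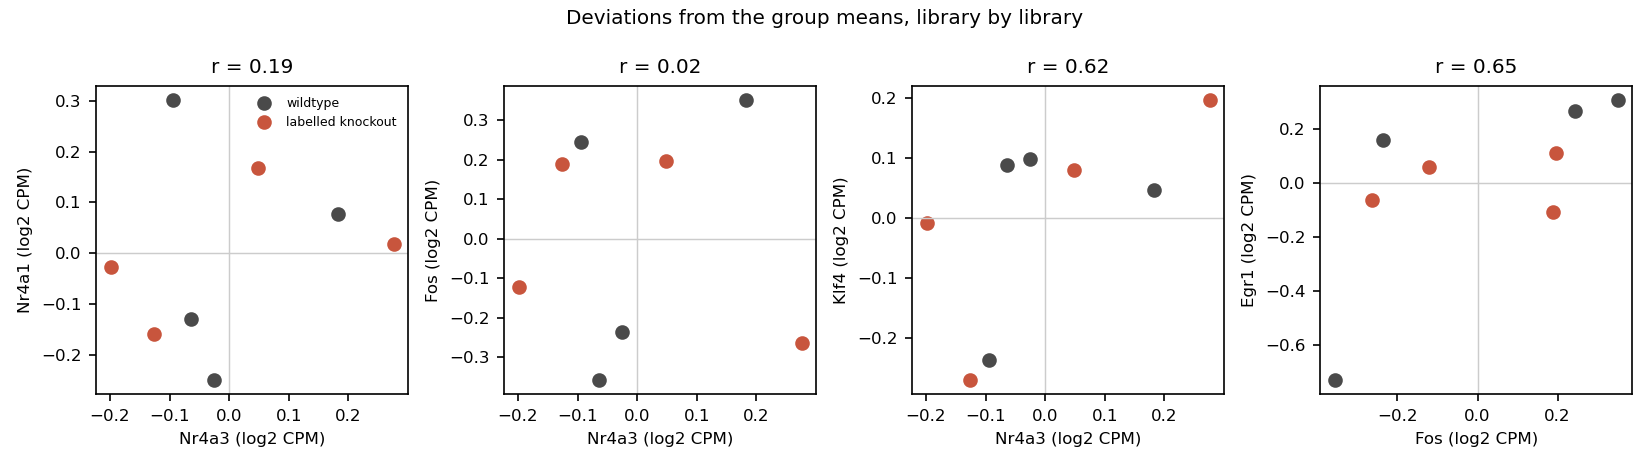
Deviations of log2 CPM from the group mean, 1 point per library, for 4 pairs of genes, wildtype and labelled knockout, with Pearson's r above each panel. The r of 0.02 for Nr4a3 and Fos joins 0.53 in wildtype and -0.43 in the knockout-labelled libraries. The r of 0.65 for Fos and Egr1 includes wildtype library 1 at the lower left.

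The spread within groups differed among the 10 genes. The SD of log2 CPM around the group means was 0.36 for Egr1, above 98.0% of the 500 tested genes nearest to it in level. The Egr1 value rests on wildtype library 1: without it Egr1 stood above 52.8%, and its SD was 0.49 in wildtype and 0.10 in the knockout-labelled libraries. Klf4 had an SD of 0.18, above 91.4% of its nearest genes. Nr4a2 (SD 0.25) and Nr4a1 (SD 0.20) stood above 89.2% and 88.2% of theirs. Nr4a3, with an SD of 0.17, stood above 26.2%, Junb above 22.2%, Ier2 above 20.8% and Fos above 47.4%. The SD of Nr4a3 was 0.13 in wildtype and 0.21 in the knockout-labelled libraries.

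Nr4a3 was also compared with its neighbours on chromosome 4, by their order on GRCm38. The 3 tested protein-coding genes on either side were Tgfbr1, a TGF-beta receptor gene, the glycosyltransferase gene Alg2 and the translocon gene Sec61b before it, and the syntaxin gene Stx17, the endoplasmic reticulum chaperone gene Erp44 and the cilium gene Invs after it. The RefSeq starts of Tgfbr1, Alg2 and Sec61b lie at -692, -575 and -570 kilobases from that of Nr4a3. Those of Erp44 and Invs lie at 146 and 235 kilobases. Of these 6 genes on either side, 0 passed in edgeR's test, their groups all overlapped, and their log2 fold changes lay between -0.06 and 0.03. Stx17, whose RefSeq span starts 79.8 kilobases from that of Nr4a3, had 40.0 ± 2.83 CPM in wildtype, against 40.9 ± 3.99 CPM in the knockout-labelled libraries (SD, n = 4 per group).

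**Figure D5:**
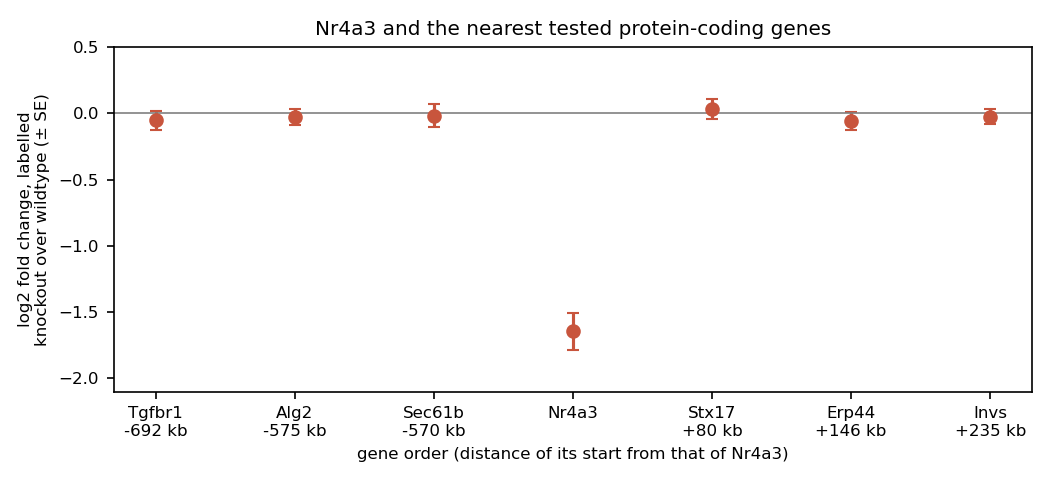
Log2 fold changes with SE of Nr4a3 and the 3 tested protein-coding genes on each side, in gene order, with the distance between gene starts in kilobases. Nr4a3 lies at -1.64 and its neighbours between -0.06 and 0.03.

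Genes whose log2 CPM over the 8 libraries was most like that of Nr4a3 were others with lower values in the knockout-labelled libraries. They include the ciliary gene Cep41 (r = 0.99), the angiotensin-converting enzyme gene Ace (0.96), the receptor tyrosine kinase gene Kit (0.96) and Arhgap27 (0.94). Kit had 59.7 to 62.5 CPM in wildtype, against 50.4 to 52.9 CPM in the knockout-labelled libraries, and its log2 fold change of -0.25 ± 0.05 (SE) missed the threshold (edgeR, Benjamini-Hochberg adjusted p = 0.125). These values of r carry the difference between the groups. For Fos, in deviations from the group means, the most alike were Ndufaf5 (r = 0.99), Fbxl12os, Plch2, Dmtn and Ppfibp2 (0.96), the highest of 12466 candidate genes over 8 libraries.

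The wider pathway was read from 6 lists of genes. Of 102 tested genes, none reached the threshold with edgeR, DESeq2 or limma-voom (0 with each), and 7 had an unadjusted p under 0.05, where 7.55% of all tested genes did. Groups did not overlap for 3.92% of them (3 lower and 1 higher), near the 3.69% of all tested genes. Their median log2 fold change was -0.03, against 0.00 over all tested genes.

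Among 23 other early transcription factor genes, 20 were tested and 0 passed, with 12 below 0 and a median of -0.09. Jun, the main partner of Fos, had 33.1 to 36.0 CPM in wildtype, against 30.6 to 32.9 CPM in the knockout-labelled libraries, a log2 fold change of -0.12 ± 0.06 (SE) with groups that did not overlap. The circadian and stress factor gene Bhlhe40 had -0.26 ± 0.11 and the Fos relative Fosl2 -0.22 ± 0.11. The genes that did not pass the low-count filter were Fosl1, Egr4 and Npas4, the last a factor induced by activity in neurons, at 0.0299 to 0.268 CPM. Of 31 early effector and feedback genes 0 passed, with 22 below 0 and a median of -0.05. The lowest p there belonged to the growth arrest gene Gadd45b (-0.37 ± 0.14), the matricellular gene Ccn1 (-0.20 ± 0.08) and its relative Ccn2 (-0.33 ± 0.16).

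Of 30 genes for the kinases and factors that act upstream, 0 passed, with values between -0.11 and 0.08. Rps6ka2, a ribosomal S6 kinase gene, had 74.0 to 76.9 CPM in wildtype, against 69.2 to 71.8 CPM in the knockout-labelled libraries (log2 fold change -0.10 ± 0.04, SE). The ERK1 gene Mapk3 had -0.11 ± 0.05 and Prkaca, which encodes the catalytic subunit of protein kinase A, -0.10 ± 0.06. Among the 3 retinoid X receptor genes, 0 passed, with Rxra at -0.07 ± 0.06, Rxrb at 0.05 ± 0.05 and Rxrg at 0.17 ± 0.10.

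None of 10 tested genes reported elsewhere as Nr4a targets passed in edgeR's test, and 5 lay below 0 and 5 above. Pomc, the precursor of melanocortin peptides, had 2.22, 4.05, 1.38 and 0.568 CPM in wildtype, against 0.441, 0.773, 0.568 and 0.788 CPM in the knockout-labelled libraries. Its wildtype libraries 1 to 3 lay above all knockout-labelled libraries and library 4 among them, and the log2 fold change of -1.69 ± 0.48 (SE) came with an adjusted p of 0.497 (edgeR, Benjamini-Hochberg). The sterol carrier gene Star had 8.14 to 9.56 CPM in wildtype, against 10.05 to 10.9 CPM in the knockout-labelled libraries (0.27 ± 0.09), and Ikzf2, a factor of outer hair cells, 25.9 to 30.7 and 30.3 to 35.7 CPM (0.23 ± 0.07). Heat shock genes, which respond to tissue handling, gave 0 of 8 past the threshold, with a median of -0.02, Dnajb1 at -0.07 ± 0.05, Hspa1a at 0.13 ± 0.14 and Hspb1 at -0.22 ± 0.14.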

How the data were processed

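Per the labels' protocols, RNA was purified with Qiagen RNeasy, ribosomal RNA was removed, and NEBNext Ultra II served for library construction. The submitters' processing notes list the build GRCm39 and the tools cutadapt 4.3, FastQC 0.12.1, HISAT2 2.2.1, DESeq2 and featureCounts. Which annotation and strand setting were used is not given in the sources used here. Raw counts per gene were deposited, with the mean (a signal) and SD of the 4 counts of a group. The authors also deposited a mean of normalized counts (a signal) and a DESeq2 comparison with log2 fold changes, their standard errors, a test score, p-values and adjusted p-values, per the file headers. It does not state its direction, which was read from the signs.

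From the counts, genes were kept with filterByExpr (minimum count 10) and scaled by TMM, and CPM use these factors. Genotype was tested with edgeR 4.0.16 (quasi-likelihood, R 4.3.3) over 20581 genes with Benjamini-Hochberg adjustment and a threshold of 0.05. Log2 CPM have a prior count of 2. Alternatives were RLE and upper quartile scaling, no filter, a filter of 50 counts in 4 libraries, DESeq2 1.42.0, limma-voom (limma 3.58.1) with and without quality weights, a replicate block, 2 covariates, each library left out, wildtype libraries 1 and 3 left out, thresholds of 0.01 and 0.1 and, for log2 CPM, a prior count of 0.5. The fits were tested on simulated data. No libraries were duplicates (lowest chi-square per degree of freedom between libraries of a group 9.85). Exon lengths are the union of GENCODE M21 exons (GRCm38), and promoter windows and gene order are from RefSeq, GRCm38.p6.

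The genes and lists were chosen with earlier results of these data known. Named are the 10 genes, from each list the genes past the threshold or else up to 3 with the smallest p, the 5 genes most like Nr4a3 and Fos of mean log2 CPM 2 or more, and the 3 neighbours on each side of Nr4a3. Other genes given by name (Fosl1, Egr4, Npas4, Egr2, Egr3) were picked with their values in view. A gene under this rule is not reported here.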

Additional observations from a re-analysis of the deposited data

Results flagged for a closer look

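Among the named genes, the wildtype and knockout-labelled libraries were each searched for 1 library far from the other 3, which chance gives in about 5% of groups. A single value was found: Prkaca had 135 CPM in wildtype library 2, where the other wildtype libraries held 149.7 to 150.4 CPM.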

How the results depend on the processing

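Nr4a3 was called lower under every alternative run, with log2 fold changes between -1.78 and -1.58. No other of the 10 genes and none of the pathway genes was called in a setting where it was judged. Fosb and Atf3 were not judged under the stricter filter. Fos, Fosb, Junb, Egr1 and Ier2 were not judged with the early gene score, which they make up. The number of all tested genes called was 7 higher and 12 lower. It was 12 and 24 without a filter and 35 and 48 with DESeq2. The count of higher genes was 2 at a threshold of 0.01, and that of lower genes was 22 with voom quality weights and 20 with the early gene score as a covariate. Without the wildtype libraries 1 and 3 the counts were 2 and 7, and with the stria score 1 and 7. With 1 library left out they ran from 2 to 7 higher (3 at most on leaving out wildtype 1, wildtype 3 or any of knockout-labelled 1, 2 and 3) and from 8 to 20 lower (20 without library 4 labelled knockout). The causes were not tested. With the replicate block, 3 genes were higher and 12 lower, and Nr4a3 had -1.65. Deviations of same-numbered libraries correlated at 0.11, 0.21, -0.28 and -0.14 over all tested genes, so the numbers were not taken to pair the libraries, and not every library correlated best with its own number.

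Genes near 0 changed sign. With 1 library left out, log2 fold changes ran from -0.12 to 0.16 for Egr1 (below 0 without wildtype library 1), from -0.17 to 0.019 for Nr4a1 (above 0 without wildtype library 2) and from -0.085 to 0.0035 for Junb (above 0 without wildtype library 4 or library 2 labelled knockout). Egr1 had -0.16 without the wildtype libraries 1 and 3. With the stria score, Egr1 had -0.37, Nr4a2 -0.035 and Ier2 0.012. None of the 17 correlations passed in any setting. Where 1 library was left out, too few orders within groups remained for a single pair to pass, however strong. Fos and Fosb, for example, had r = 0.88 without wildtype library 3 and an adjusted p of 0.118 (exact permutation, Benjamini-Hochberg). These settings therefore cannot show that a pair is unrelated. With 1 library left out, r of Nr4a3 ran from -0.35 to 0.56 with Fos, -0.41 to 0.026 with Nr4a2, -0.041 to 0.35 with Egr1, -0.030 to 0.34 with Fosb and -0.78 to 0.0096 with Atf3. That of Fos ran from -0.14 to 0.62 with Atf3, -0.33 to 0.88 with Fosb, -0.55 to 0.12 with Junb and -0.020 to 0.60 with Nr4a2. Without the 2 farthest libraries, r of Nr4a3 was 0.20 with Nr4a2, -0.14 with Junb and 0.84 with Atf3, and r of Fos and Fosb was -0.34. The number of genes with a spread at or above the 90th percentile was 2, 1 with upper quartile scaling and 1 to 4 with 1 library left out (4 on leaving out either library numbered 4, 1 on leaving out knockout-labelled 1). Depth limits Fosb and Atf3 most, whose lowest counts were 11 and 18, and then Fos and Nr4a3, at 42 and 65.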

Other observations

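The Egr genes related to Egr1 were looked at after the values were seen. Egr2 had 9.54, 14.0, 10.8 and 15.1 CPM in the wildtype libraries 1 to 4, against 12.1 to 13.8 CPM in the knockout-labelled libraries. Egr3 had 4.63, 11.05, 6.76 and 10.96 CPM in wildtype, against 5.94, 11.9, 7.30 and 5.55 CPM in the knockout-labelled libraries. Wildtype library 1 was the lowest wildtype library for Egr1, Egr2, Egr3, Fos, Fosb and Nr4a2. It was not the lowest for Nr4a1, Nr4a3, Junb, Klf4, Ier2 or Atf3.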
